A study of Homo sapiens with 32 samples.

Results

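DDX39B, also called UAP56, was the 1 gene examined, out of 63793 genes in the annotation used and 29106 genes that held at least 1 tag in the 12 libraries. Its members were the crosslink tags that fell on its strand between its annotated start and end, which GENCODE (release 44 lifted to hg19) places on the minus strand at chr6:31497996-31510225 (ENSG00000198563.14_12). The canonical transcript, DDX39B-202, has 11 exons, a 5′ UTR of 186 nt, a coding sequence of 1287 nt with its stop codon and a 3′ UTR of 208 nt. Introns take 82.6% of the gene's 12230 nt. The gene has 21 annotated isoforms, 5 of which are classed as intron-retaining.

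DDX39B is an RNA helicase of the DEAD-box family. It is a core subunit of TREX, the complex that joins transcription and splicing to the nuclear export of mRNA, and it was first known as a partner of the splicing factor U2AF that is needed when the U2 snRNP joins the branch point. In export it clamps RNA in an ATP-dependent way and brings adaptor proteins such as Alyref and Chtop to the message, and the adaptors then hand the mRNA to the export receptor Nxf1. The data here do not show what the DDX39B protein bound, but where crosslink tags from pulldowns of these 3 proteins fell on its own transcript.

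The measurement was iCLIP, in which UV light fixes protein to RNA in living cells and the cDNA stops beside the crosslinked base, so that each deduplicated cDNA, called a tag, marks 1 base. FLAG-tagged Alyref, Chtop or Nxf1 was expressed in FlpIn-293 cells (HEK293T in the sample labels), a human embryonic kidney line that carries a recombination site for transgenes, and each was pulled down with anti-FLAG. Expression was switched on with tetracycline over 48 h (10 ng/mL in the Alyref and Chtop lines, 5 ng/mL in the Nxf1 line), and the Control group carried the FLAG tag alone at a dose the labels do not give. The 32 lane runs made up 12 libraries, 3 in each group, and nothing in the labels says that these came from separate cultures, so p-values measure only the spread between these libraries, which may be technical.

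The libraries differed in depth. The Alyref libraries ranged from 81307 to 631704 tags and the Chtop libraries from 47052 to 538844. The Nxf1 libraries had 8134 to 179346 tags and the Control libraries 7017 to 46628, and replicate 1 was the shallowest library of each group. A library of 0 tags on a feature therefore allowed up to 4.75 CPM (counts scaled to the library total) in Alyref replicate 2 but up to 428 in Control replicate 1, taking 3 tags as the upper limit of a count of 0. These floors and all intervals given here cover counting error only.

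The DDX39B transcript was among those with most tags in the Alyref and Chtop libraries. It carried 1308 Alyref tags, 967 Chtop tags, 97 Nxf1 tags and 40 Control tags once tags inside its hosted snoRNAs were set aside. Ranked by summed tags, it was the 11th of 15215 protein-coding genes with an Alyref tag and the 21st of 14967 with a Chtop tag. Its place was lower, the 94th of 13692 and the 70th of 10205, among genes with Nxf1 and Control tags. These places take no account of the length or abundance of the RNA.

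The Alyref libraries held 114, 643 and 551 tags on the gene, which is 1402, 1018 and 913 CPM. The Chtop libraries held 44, 549 and 374 tags, or 935, 1019 and 871 CPM. In CPM the 6 libraries of these 2 adaptors therefore lay between 871 and 1402, and the Chtop values fell inside or just below the Alyref range. The Nxf1 libraries held 8, 52 and 37 tags, or 984, 436 and 206 CPM. The Control libraries held 8, 29 and 3 tags, or 1140, 622 and 81.1 CPM. In both of these groups the shallowest library gave the highest level, from 8 tags, with an exact Poisson interval of 425 to 1938 CPM for Nxf1 and 492 to 2246 for Control. The Nxf1 and Control values overlapped each other, and in each group the shallow library reached into the range of the adaptors while the other libraries lay below all 6 adaptor libraries.

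**Figure D1:**
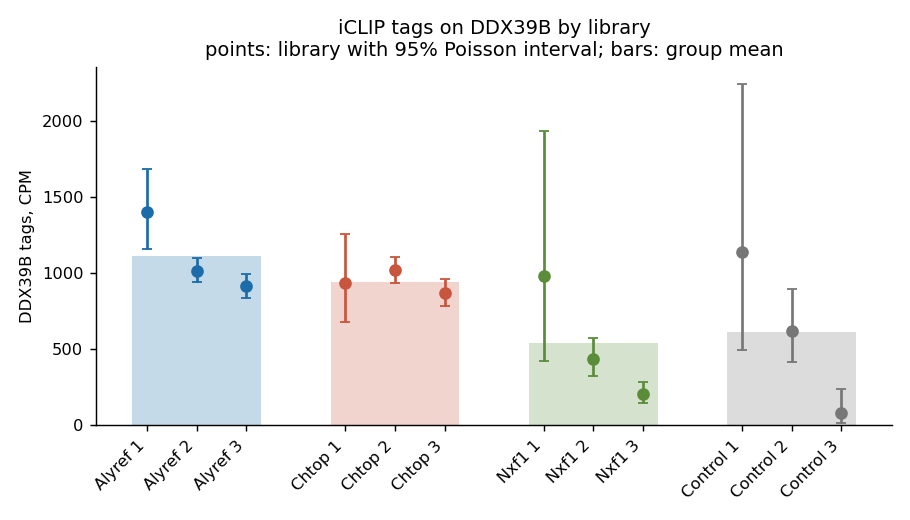
Tags on DDX39B in CPM (vertical axis) for the 12 libraries. Points are libraries with 95% exact Poisson intervals and bars are group means; the Alyref and Chtop libraries sit between 871 and 1402, while Nxf1 spans 206 to 984 and Control 81.1 to 1140.

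In order of mean level, Alyref stood at 1111 ± 257 CPM (SD, n = 3), Chtop at 942 ± 74.3, Control at 614 ± 530 and Nxf1 at 542 ± 399. Neighbours in this order did not differ beyond their spread. The values were not scaled to the amount of DDX39B RNA, which was not measured in these libraries. The edgeR fit used tags assigned to 1 gene and scaled them by TMM factors. On that scale the adaptor libraries ran from 1129 (Alyref replicate 3) to 2069 (Alyref replicate 1), so its fold changes need not match the CPM means. In the edgeR quasi-likelihood fit over all 12 libraries and 3369 genes, log2 fold changes for DDX39B were 0.14 (SE 0.41, adjusted p = 0.837) for Alyref against Chtop, 1.11 (SE 0.49, adjusted p = 0.113) for Chtop against Control and -0.15 (SE 0.53, adjusted p = 0.972) for Nxf1 against Control. Alyref stood above Control by 1.25 (SE 0.49) with an adjusted p of 0.203, so neither adaptor passed the threshold of 0.05 against the background pulldown. Of all genes tested, 16.5% were called for Alyref against Chtop, 15.2% for Chtop against Control, 0.0297% for Nxf1 against Control and 0.267% for Alyref against Control.

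The 1 call for DDX39B was between Chtop and Nxf1. Chtop stood higher by 1.26 on the log2 scale (SE 0.47, adjusted p = 0.0419, edgeR), in a comparison that called 25.8% of all genes. Alyref against Nxf1 gave a larger difference, 1.403 (SE 0.46), that did not pass (adjusted p = 0.0682), in a comparison that called 4.72% of genes. With the replicate number as a block this second difference passed (1.32, adjusted p = 0.0404). The Chtop call rested on several single libraries, and the edgeR adjusted p rose to 0.0627 without Alyref replicate 2, 0.0572 without Alyref replicate 3, 0.058 without Chtop replicate 2, 0.0819 without Chtop replicate 3, 0.0848 without Nxf1 replicate 2 and 0.265 without Nxf1 replicate 3. The Alyref difference instead passed in edgeR when certain shallow or background libraries were left out. Its adjusted p was 0.0221 without Chtop replicate 1, 0.0282 without Nxf1 replicate 1 and 0.0348, 0.0356 and 0.0204 without Control replicates 1, 2 and 3. It did not pass without Alyref replicate 1, the shallowest Alyref library (adjusted p = 0.0829). Chtop against Control passed without Alyref replicate 1 (adjusted p = 0.0355).

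Within the gene, the tags divided between the exons and a single intron. Exons of the canonical transcript held 47.9% of the Alyref tags, 44.3% of the Chtop tags, 28.9% of the Nxf1 tags and 37.5% of the Control tags. Intron 6 alone held 40.9%, 47.5%, 52.6% and 35% for Control. All other introns together held 10.5%, 7.55%, 15.5% and 27.5% over a greater length.

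**Figure D2:**
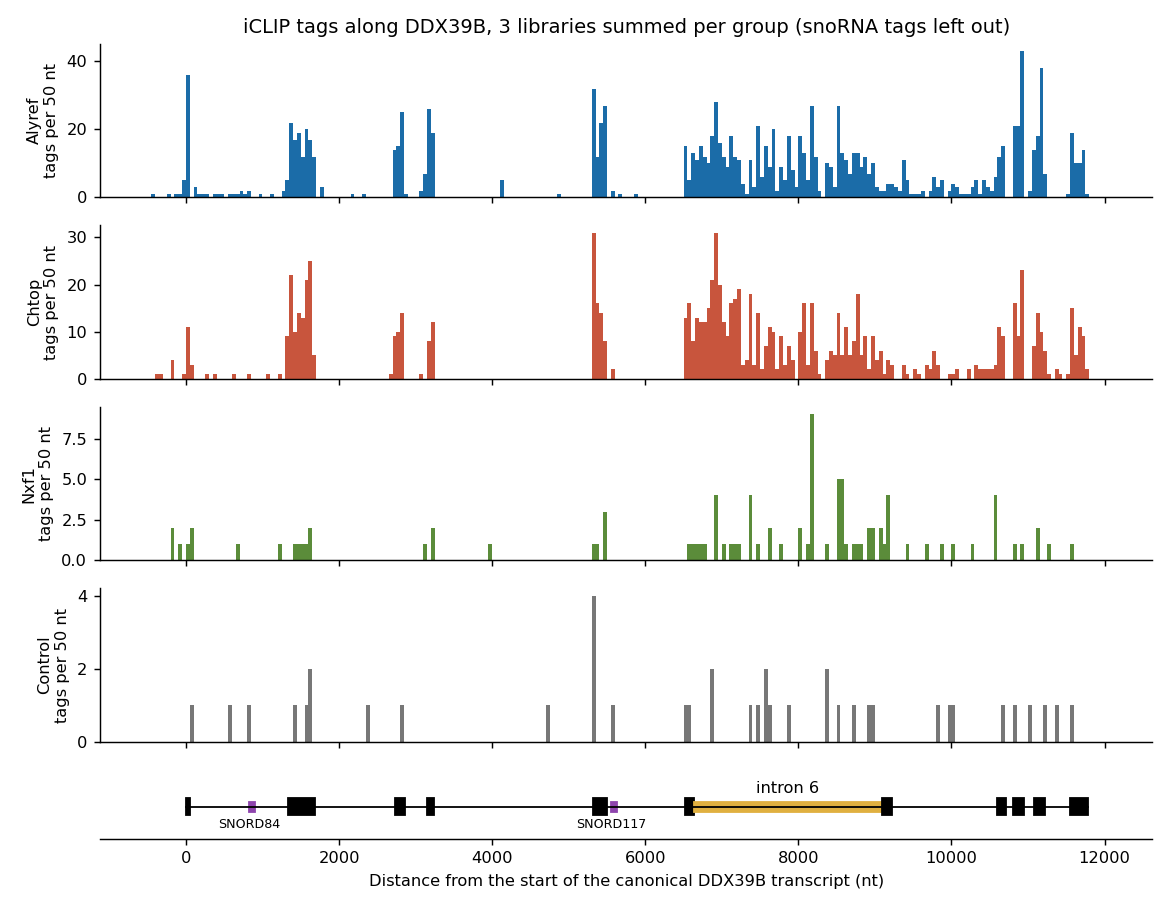
Tags per 50 nt (vertical axes, a scale for each group) against the distance in nt from the start of the canonical DDX39B transcript, with the 3 libraries of a group summed. Black boxes below are exons, the yellow box is intron 6 and the purple boxes are the snoRNAs; Alyref and Chtop tags stand on the exons and fill intron 6, while introns 2 to 5 are nearly empty.

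Intron 6 lies at chr6:31500689-31503143 and is 2455 nt long, which is 20.1% of the gene. Isoforms DDX39B-215 and DDX39B-219, both of the intron-retaining class, keep it whole, and DDX39B-219 also keeps intron 1. A tag in the intron can come from either of these or from RNA not yet spliced, which the tags do not tell apart. The Alyref libraries had 52, 247 and 236 tags in it, the Chtop libraries 24, 268 and 167, the Nxf1 libraries 4, 33 and 14 and the Control libraries 4, 9 and 1. As shares of each library's DDX39B tags these were 45.6%, 38.4% and 42.8% for Alyref and 54.5%, 48.8% and 44.7% for Chtop. The Nxf1 libraries had 50%, 63.5% and 37.8%, and the Control libraries 50%, 31.0% and 33.3%. The groups overlapped, and every library had at least 31.0% of its DDX39B tags in this intron.

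**Figure D3:**
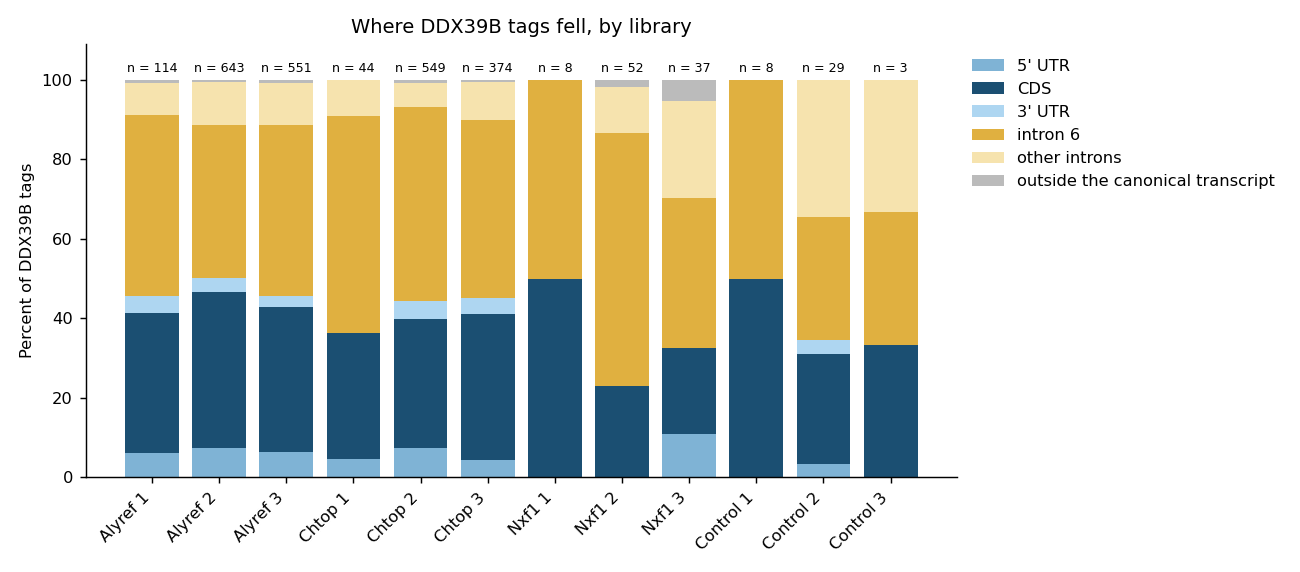
Percent of DDX39B tags (vertical axis) in each part of the transcript for the 12 libraries, with the number of tags above each bar. Intron 6 (yellow) takes 31.0% to 63.5% of every library, while the remaining introns (pale) take over 20% only in Nxf1 replicate 3 and Control replicates 2 and 3.

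By density, intron 6 was closer to an exon than to the other introns. It held 218 Alyref tags per kb against 18.3 in the other introns and 373 in the exons, and 187 Chtop tags per kb against 9.75 and 255. The density in intron 6 was 10.8 to 17.6 times that of the other introns in the 3 Alyref libraries and 14.1 to 24.8 times in the 3 Chtop libraries. In Nxf1 replicates 2 and 3 the ratio was 16.8 and 4.74, and in Control replicates 2 and 3 it was 2.75 and 3.05, the last from 1 tag on each side. Replicate 1 of both groups had 4 tags in intron 6 and 0 in the other introns. Over the summed libraries the ratio was 11.9 for Alyref, 19.2 for Chtop and 10.4 in the Nxf1 group. In Control it was 3.88, which rests on 14 and 11 tags.

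The introns near the 5′ end were almost bare. Intron 1, which DDX39B-219 also keeps, held 23 Alyref tags and 11 Chtop tags outside its snoRNA, and its density was 13.3 ± 3.15 CPM per kb (SD, n = 3) for Alyref, compared with 193 ± 58.4 for intron 6. Intron 4, of 2079 nt, held 10 Alyref and 4 Chtop tags. Intron 7, just downstream of intron 6, came next by tags, with 78 Alyref and 42 Chtop tags, a density of 38.4 ± 10.2 and 30.5 ± 1.95 CPM per kb. Part of intron 7 is exon in other isoforms, and these 367 nt held 24 of the Alyref and 8 of the Chtop tags, leaving 54 and 34 in the other 1007 nt.

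Exon 7, which follows intron 6, held few Alyref and Chtop tags. It had 0, 6 and 4 Alyref tags and 0, 3 and 4 Chtop tags in its 132 nt, a mean of 40.7 ± 36.9 and 37.6 ± 35.5 CPM per kb. It was the sparsest exon for both adaptors. For Nxf1 it was the densest exon by summed tags, at 45.5 tags per kb, from 6 tags of which 5 lay in Nxf1 replicate 2. Exon 6, which precedes the intron, had no tag in the shallow replicate 1 of either adaptor and stood at 226 and 195 CPM per kb in the other Alyref libraries and 296 and 313 in the other Chtop libraries. For Alyref, exons 1 and 9 were the densest, at 557 ± 114 and 586 ± 304 CPM per kb, and they were also the densest by summed tags, with 667 and 586 tags per kb. For Chtop the order depended on the shallow library. Exon 1 had a mean of 400 ± 337 CPM per kb, but its libraries stood at 787, 241 and 172, the first from 2 tags in Chtop replicate 1. By summed Chtop tags, exons 5, 2 and 9 led with 353, 335 and 324 tags per kb, and exon 6 (294) and exon 1 (241) came below them.

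**Figure D4:**
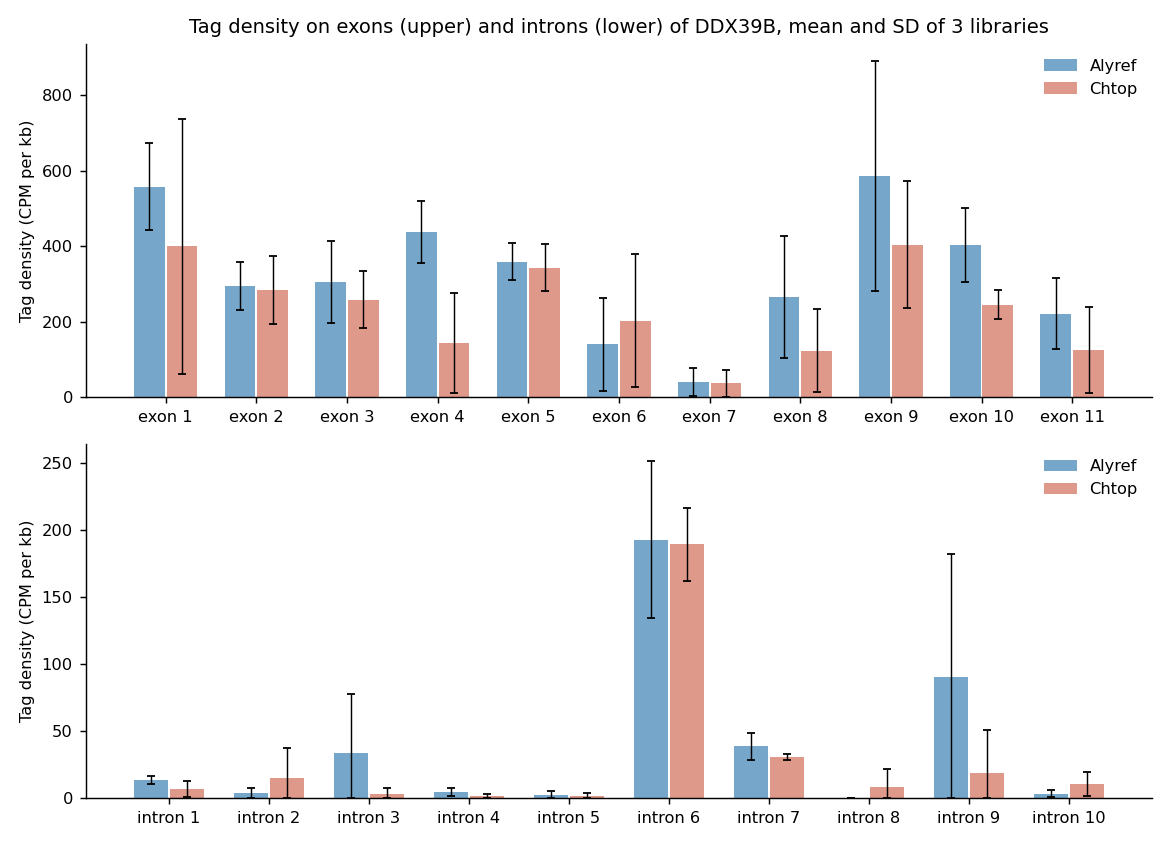
Density of Alyref and Chtop tags, in CPM per kb, on the 11 exons (upper panel) and 10 introns (lower panel) of DDX39B. Bars are means and lines SDs of 3 libraries, cut at 0; intron 6 stands at 193 and 190, above every other intron and above exon 7.

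Among all introns of the protein-coding genes, intron 6 of DDX39B ranked 2nd of 59595 with a tag for Chtop and 8th of 77953 for Alyref, by summed tags and without regard to length. It ranked 61st of 40788 for Nxf1 and 133rd of 20531 for Control. Set against the other genes with at least 40 tags, the share of DDX39B tags in introns was 51.4% for Alyref, where the median gene had 42.6%, and 55.0% for Chtop, where it had 25.9%. For Nxf1 the share was 68.0% against a median of 71.5%, and for Control it was 62.5% against 96.2%, over 70 other genes. The largest share from any 1 intron exceeded that of 88.4% of the other genes for Alyref and of 96.6% for Chtop. For Nxf1 and Control it exceeded 85.4% and 37.1%. These ranks are descriptions and take no account of the length or abundance of the RNA.

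The splice sites of intron 6 are given from the hg19 sequence, with the first and last bases of the intron in capitals, beside those of intron 4, which is of like length and nearly free of tags.

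Intron 6, 5′ splice site: gatGTaaat
Intron 6, 3′ splice site: acccccttcctcccccccAGcca
Intron 4, 5′ splice site: aagGTaagc
Intron 4, 3′ splice site: ctttgcttctggctcggcAGgtt

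The 5′ splice site of intron 6 follows a T, where the other introns of the gene have G or A before the GT. Of the last 20 bases before its end, 85% were C or T, within the range of the gene's introns (60% to 90%). Intron 6 has a GC content of 50.1%, the highest of the 10 introns, and 28.0% of its bases are T.

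Tags were spread along intron 6 and did not gather at a few sites, with 535 Alyref tags on 436 bases and 459 Chtop tags on 392. Of the Chtop tags, 33.6% lay in the first of 5 equal segments of the intron (95% Wilson interval 29.4% to 38.0%), and the shares fell to 13.1% in the fourth. Of the Alyref tags, 26.9% lay in the first segment (23.3% to 30.8%) and 16.3% to 20.2% in the rest. In the single libraries the first segment held 6 of 24, 94 of 268 and 54 of 167 Chtop tags. For Alyref it held 17 of 52, 71 of 247 and 56 of 236, so the libraries of the adaptors overlapped. Of the summed Nxf1 tags, 21 of 51 lay in the fourth segment, which is 41.2% (28.8% to 54.8%) where Alyref had 20.2% and Chtop 13.1%. By library these were 2 of 4, 10 of 33 and 9 of 14 tags. Control had 3 of 14 tags there. A window of 30 nt within this segment held 9 of the 21 Nxf1 tags, from 2 libraries. The median tag lay 1142 nt from the start of the intron for Alyref and 820 nt for Chtop, and the median Nxf1 tag 1542 nt. This split was examined after the values were seen and was not tested over libraries.

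**Figure D5:**
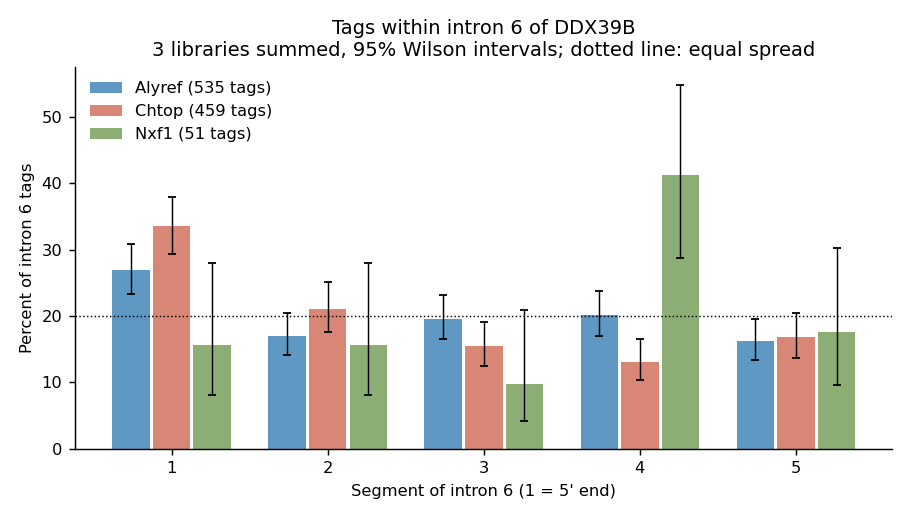
Percent of the tags in intron 6 (vertical axis) that fell in each of 5 equal segments, counted from its 5′ end, for Alyref, Chtop and Nxf1 with 3 libraries summed. Lines are 95% Wilson intervals and the dotted line is an equal spread; Chtop is highest in the first segment (33.6%) and Nxf1 in the fourth (41.2%).

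No difference between the groups in intron 6 passed the test. Intron 6 was the only part of DDX39B among the 820 exons and introns that passed the filter on low counts. In edgeR it stood 1.45 (SE 0.84, adjusted p = 0.300) above Control on the log2 scale for Alyref and 1.52 (SE 0.84, adjusted p = 0.0976) for Chtop. It stood 1.08 (SE 0.76, adjusted p = 0.566) above Nxf1 for Alyref and 1.14 (SE 0.77, adjusted p = 0.181) for Chtop. Alyref against Chtop was -0.07 (SE 0.69, adjusted p = 0.936) and Nxf1 against Control 0.37 (SE 0.89, adjusted p = 0.936). Of all 820 parts 56.3% were called for Chtop against Control, 53.2% for Chtop against Nxf1, 33.9% for Alyref against Chtop, 0.488% for Alyref against Nxf1, 0.244% for Alyref against Control and 0% for Nxf1 against Control, where edgeR gave 71 parts an unadjusted p under 0.05.

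With every part of at least 50 tags admitted, a choice made after the data were seen, 9 exons and introns 6 and 7 of DDX39B could be tested among 6394 parts. The 50 tags were counted over all 12 libraries, and most of those on these parts of DDX39B came from Alyref and Chtop. A part could thus enter through the groups where it was high. Exons 2, 3, 9 and 11 did so, holding 6, 0, 2 and 1 summed Nxf1 tags. The filter was therefore not independent of the comparison with Nxf1, and the adjusted p-values that follow are descriptions. Exons 2, 3, 9 and 11 were higher in Chtop than in Nxf1, in a comparison where 34.8% of all parts were called, and the other 7 parts did not pass, among them intron 6 (1.16, SE 0.74, adjusted p = 0.193). Exon 2, which holds the start codon, had 3, 67 and 45 Chtop tags and 0, 3 and 3 Nxf1 tags, a log2 fold change of 2.19 (SE 0.77, adjusted p = 0.0206, edgeR). Exon 3 had 2, 18 and 10 Chtop tags and 0 in every Nxf1 library (adjusted p = 0.014, edgeR). Over the summed libraries Chtop was 3.02-fold higher if 3 tags are taken as the floor for Nxf1. This ratio leaves out the counting error of the Chtop tags and is not a lower limit. Exon 9 had 4, 20 and 23 against 1, 0 and 1 tags (2.57, SE 0.99, adjusted p = 0.0344), and exon 11, with the 3′ UTR, had 0, 27 and 15 against 0, 1 and 0 (3.15, SE 1.16, adjusted p = 0.0271). All 4 rested on Nxf1 replicate 3, without which their adjusted p lay between 0.136 and 0.27. Without Nxf1 replicate 2 the call on exon 11 passed (0.039) and those on exons 2, 3 and 9 did not (0.0584, 0.0605 and 0.203). The log2 fold change of exon 9 ran from 1.76 to 3.47 with a library left out, lowest without Nxf1 replicate 2 and highest without Nxf1 replicate 1. That of exon 11 was 2.19 without Nxf1 replicate 3, and without Nxf1 replicate 2, which holds its only Nxf1 tag, the comparison is with 0 tags. Exon 9 also failed without Alyref replicate 2 (0.0542), Chtop replicate 1 (0.0509) or Chtop replicate 3 (0.0883), and exon 11 without Chtop replicate 2 (0.0597). No part of DDX39B passed in the remaining comparisons, which called 13.4% of the 6394 parts for Chtop against Control, 34.7% for Alyref against Chtop, 0.438% for Alyref against Nxf1, 0.0626% for Alyref against Control and 0% for Nxf1 against Control, where edgeR gave 478 parts an unadjusted p under 0.05.

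By region of the transcript, the coding sequence held 36.9% ± 2.09 of the DDX39B tags in Alyref (SD, n = 3) and 33.8% ± 2.73 in Chtop, beside 31.6% ± 15.98 in Nxf1 and 36.97% ± 11.6 in Control. The 5′ UTR held 6.14%, 7.31% and 6.35% in the Alyref libraries and 4.55%, 7.29% and 4.28% in the Chtop libraries, against 0%, 0% and 10.8% in the Nxf1 libraries and 0%, 3.45% and 0% in Control. Every Alyref and Chtop library was thus above every Control library, and Nxf1 spanned both. The 3 Control values come from 8, 29 and 3 tags, so that a share of 0 there allows far more than the adaptors showed. The 2-sided exact permutation p was 0.1 for each adaptor against Control, the smallest that 3 against 3 libraries allow (adjusted p = 0.9 over 18 comparisons with Control).

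The 3′ UTR held 4.39%, 3.73% and 2.90% of the tags in the Alyref libraries, 0%, 4.37% and 4.01% in the Chtop libraries, and 0 of 97 tags in Nxf1. Nxf1 was lower than the adaptors by 3.23 percentage points in the mean, with an exact permutation p of 0.0952 where 0.0238 is the smallest that 3 against 6 libraries allow (adjusted p = 0.857 over 18 comparisons between factors). Control had 1 tag of 40 in the 3′ UTR. Introns held 52.1% ± 2.39 of the tags in Alyref and 57.6% ± 5.25 in Chtop, beside 62.4% ± 12.5 in Nxf1 and 60.7% ± 9.31 in Control. For the introns that another isoform retains the values were 43.8% ± 3.42, 50.2% ± 4.16, 52.6% ± 13.6 and 41.6% ± 8.33. No region share and no ratio of last to first exon differed between groups at an adjusted p under 0.05 in any of the 36 exact permutation tests, and the 18 against Control could not have passed at any difference.

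The places with most tags were found with a sliding window of 30 nt. The densest window of each of the 3 factors is printed below to show the sequence tagged. Capitals mark bases that carry at least 1 tag of that group, and all sequences are read 5′ to 3′ on the minus strand of hg19.

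Alyref, exon 9, chr6:31498846-31498875: TTtTAATTATGacatgcCtGaGgATTCTga
Chtop, start of exon 5, chr6:31504434-31504463: CaggTTgctGTTTTTTTtGGTGgTctgtCT
Nxf1, intron 6, chr6:31501574-31501603: GTttTttaaTTTtaaagatgaatgcagtga

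The window in exon 9, in the coding sequence, held 33 Alyref tags from all 3 libraries, 14 Chtop tags and 1 Nxf1 tag. The window that opens on the last bases of intron 4 and runs into exon 5 held 29 Chtop tags, and as many Alyref tags, with 4 Control tags and 0 Nxf1 tags. The Nxf1 window lies in the fourth segment of intron 6 and held 9 Nxf1 tags from 2 libraries, 19 Alyref tags and 12 Chtop tags. Other windows tied with the first (5 in all) and the last (19 in all). The densest Control window held 4 tags and overlapped the Chtop window at exon 5, and 15 windows tied there.

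No single base dominated. The 2412 tags of all 12 libraries fell on 1575 bases, and 500 of the 1559 bases tagged in the 3 factors were tagged in more than 1 of their 9 libraries. The 5 bases with most tags over the factors are shown with 10 bases on each side and the crosslinked base in capitals.

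Exon 5, base 8 of the exon: caggttgctgTtttttttggt
Intron 6, base 1881 of the intron: cttgagtaatTtttgtttctc
Intron 9, base 125 of the intron: gtctccctccAggtggccaga
Exon 9, base 107 of the exon: tgcttttaatTatgacatgcc
Intron 6, base 1390 of the intron: gcttctggttTttttcccatg

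The base in exon 5 (chr6:31504453) held 4 Alyref and 4 Chtop tags in 4 libraries. The base 1881 nt into intron 6 (chr6:31501263) was the only one of the 5 tagged in 7 libraries, with 3 Alyref, 2 Chtop and 2 Nxf1 tags. The base in intron 9 (chr6:31498705) is the A of the closing AG, with 4 Alyref and 3 Chtop tags, so it lies 1 base before the end of the intron and counts as intronic by position alone. The base in exon 9 (chr6:31498868) held 3 tags of each adaptor in 6 libraries. The second base in intron 6 (chr6:31501754) held 3 Alyref, 2 Chtop and 1 Nxf1 tag. Control had 0 tags on all 5. Each of the 4 crosslinked bases other than that in intron 9 is a T, a uridine in the RNA, and 3 of them stand within a run of T.

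Over all tags of the gene, the crosslinked base was a uridine for 51.4% of Alyref tags (95% Wilson interval 48.7% to 54.1%), 52.7% of Chtop tags (49.6% to 55.9%), 54.6% of Nxf1 tags (44.7% to 64.2%) and 55.0% of Control tags (39.8% to 69.3%). T makes up 29.5% of the gene's sequence. The share was 48.1% to 62.5% in the 9 factor libraries and 51.7% to 66.7% in the 3 Control libraries, so the groups overlapped. In coding sequence, where 24.7% of bases are T, it was 45.4% for Alyref and 50.8% for Chtop. In introns, where 30.4% are T, it was 54.8% and 52.3%.

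The tags belonged to the DDX39B strand. In all 12 libraries 0 tags lay on the opposite strand over the length of the gene, and 0 lay in the 500 nt past its end. Farther out, within 5 kb of its end, there were 2 Alyref, 3 Chtop, 1 Nxf1 and 0 Control tags. A readthrough gene that joins the upstream neighbour ATP6V1G2 to DDX39B is annotated on the same strand, and the stretch between the neighbours held 2 Alyref tags and 0 of the other groups.

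Introns 1 and 5 host the box C/D snoRNAs SNORD84 (chr6:31508878-31508955) and SNORD117 (chr6:31504151-31504226), short RNAs that guide methylation of other RNAs and are released from the spliced intron. SNORD84 held 40 Alyref, 22 Chtop, 4 Nxf1 and 14 Control tags. In CPM the libraries ranged from 24.6 to 31.5 in the Alyref group and 9.31 to 31.5 in the Chtop group. They reached only 16.7 in Nxf1, from 0, and spanned 0 to 236 in Control. SNORD117 held 17, 12, 1 and 3 tags. The highest CPM on SNORD84 was that of a Control library. These tags were left out of every DDX39B value above.

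DDX39A, the paralog with a closely related helicase, carried fewer tags than DDX39B in all 12 libraries. It had 13, 64 and 60 Alyref tags, or 160, 101 and 99.5 CPM. Chtop had 0, 27 and 28 tags, Nxf1 0, 5 and 7, and Control 1, 2 and 0. The count was too low for DDX39A to enter the test.

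Of 18 genes listed for TREX and export, DDX39B itself not included, only CHTOP, NXF1, NCBP3 and THOC2 held enough tags to be tested. For Chtop against Control, where 15.2% of all genes were called, CHTOP (log2 fold change 2.82, adjusted p = 0.00889) and NCBP3, a cap-binding protein of the export pathway (2.27, adjusted p = 0.00929), were higher, 2 of the 4. For Alyref against Chtop (16.5% of genes), the same 2 were lower, at -1.46 (adjusted p = 0.00101) and -0.97 (adjusted p = 0.0161). For Alyref against Nxf1 (4.72% of genes), NXF1 was lower (-1.23, adjusted p = 0.0286), 1 of the 4. For Chtop against Nxf1 (25.8% of genes), 2 of the 4 were higher and 1 lower, with NXF1 at -1.93 (adjusted p = 0.000358) and NCBP3 at 1.46 (adjusted p = 0.00504) the largest. The other higher gene was THOC2 (1.22, edgeR adjusted p = 0.0127), for which no alternative settings were examined. Chtop and Nxf1 were themselves expressed from a transgene in their own libraries, whose part in the CHTOP and NXF1 tags was not tested.

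Several of these edgeR calls were lost when 1 library was left out. CHTOP failed against Control without Control replicate 2 (adjusted p = 0.0761) and between the adaptors without Alyref replicate 2 (0.0568). NCBP3 failed against Control without Control replicate 3 (0.0787), between the adaptors without Alyref replicate 2 (0.25), Alyref replicate 3 (0.182) or Chtop replicate 3 (0.0746), and for Chtop against Nxf1 without Nxf1 replicate 2 (0.0503) or 3 (0.0537). NXF1 failed for Alyref against Nxf1 without Alyref replicate 2 (0.165) or 3 (0.217) and without Nxf1 replicate 2 (0.294) or 3 (0.129). Alyref and Nxf1 against Control called 0 of 4, with edgeR giving 1 and 2 of them an unadjusted p under 0.05. The median log2 fold change of the 4 against Control was 1.30, 1.47 and 1.33 in Alyref, Chtop and Nxf1, beside 0.16, 0.16 and 0.12 over all genes. These medians rest on 4 of the 18 genes, among them CHTOP and NXF1, the genes of tagged proteins. For Nxf1 against Control the values ran from -0.54 (THOC2) to 2.52 (NXF1).

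Of 5 genes for the exon junction complex, the protein mark left upstream of spliced junctions, only CASC3 was tested, and it was called in 0 of the 6 comparisons, also without adjustment. Its log2 fold changes lay between -0.22 and 0.31.

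The genes whose levels over the 12 libraries were most like that of DDX39B were CMTR1, LENG8, SKIC2, SNRNP200 and WDR11. Pearson's r of TMM-scaled log2 CPM was 0.968, 0.962, 0.951, 0.945 and 0.939, where the median over 3368 genes was 0.0616. CMTR1 is a methyltransferase of the mRNA cap and SNRNP200 a helicase of the spliceosome. The 12 points share their library depth, and the Nxf1 and Control libraries hold 3 to 52 DDX39B tags each, so these values are descriptions.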

How the data were processed

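iCLIP tags were measured in 12 libraries, 3 each of Alyref-FLAG, Chtop-FLAG, Nxf1-FLAG and FLAG-only Control, from 32 lane runs. The deposited values are counts: for each crosslinked base and strand, the number of cDNAs left after the authors removed PCR duplicates by random barcode. According to the methods and processing notes, the authors removed phiX reads (Bowtie 1.1.2), handled barcodes with UMI-tools 0.5.3, kept reads over 15 nt, mapped them to hg19 with STAR 2.4.2a and Ensembl 75 junctions, kept unique alignments, merged lanes and took the base before each read, or a deletion within it, as the crosslink. Reads from near-identical copies are therefore lost. The pooled files were left out of all tests, since they equal the sum of the replicates at every position.

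Tags were assigned by strand to GENCODE release 44 genes lifted to hg19. Readthrough loci were left out of the gene table, as 1 of them spans DDX39B, and tags inside more than 1 gene, such as the hosted snoRNAs, were not counted. Regions follow the canonical transcript. Between 60.7% and 86.7% of a library's tags fell in 1 gene. Counts per gene and per exon or intron were fitted with edgeR 4.0.16 (R 4.3.3; TMM factors, filterByExpr, quasi-likelihood F-test, all 12 libraries, group as the only term), with Benjamini-Hochberg adjustment over all features tested and a threshold of 0.05. The SE beside an edgeR log2 fold change was derived from the test, as the absolute log2 fold change divided by the square root of F. The script was tested on simulated data. Region shares were compared by 2-sided exact permutation tests (SciPy 1.17.1), 18 between factors and 18 against Control, each adjusted as a family. The ratio of last to first exon had 0.5 tags added to each. Shares carry Wilson intervals and levels exact Poisson intervals, at 95%.

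DDX39B and the gene lists were chosen with earlier results of these data known. Genes were named by rule: the hosted snoRNAs, DDX39A, the 5 genes with the highest Pearson's r to DDX39B (TMM-scaled log2 CPM of tags assigned to 1 gene, prior count 2), and from each list the 2 tested genes of largest log2 fold change that passed in a comparison. To complete the genes tested, 2 more are named. These are THOC2, which passed for Chtop against Nxf1 but was not among the 2 largest, and CASC3, which passed in no comparison. The bases named are the 5 with most tags over the 9 factor libraries. Alternatives were library size alone, DESeq2 1.42.0, no filter, the replicate number as a block, snoRNA tags included, distinct bases, merged exons of all isoforms and leaving out each library, with a filter of 50 tags on exons and introns added after the data were seen.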

Additional observations from a re-analysis of the deposited data

How the results depend on the processing

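For DDX39B as a whole, 85 of 108 alternative values kept their direction and their side of the threshold. Chtop against Nxf1 lost its call with library size alone (log2 fold change 1.17, adjusted p = 0.086), with DESeq2 (1.17, adjusted p = 0.0673) and with the hosted snoRNAs counted (1.25, adjusted p = 0.0576). Library size alone moved the median log2 fold change of all genes by -0.17 to 0.11 over the 6 comparisons and changed no direction for DDX39B. Without the filter on low counts, Chtop against Control (1.58, adjusted p = 0.0393) and Alyref against Nxf1 (1.67, adjusted p = 0.0274) passed, and Nxf1 against Control turned to 0.0184. With each library left out in turn, the log2 fold change ran from 0.97 to 1.52 for Chtop against Nxf1, from 1.103 to 1.65 for Alyref against Nxf1, from 0.84 (without Control replicate 3) to 2.05 (without Control replicate 2) for Alyref against Control, from 0.70 to 1.89 for Chtop against Control, from -0.65 to 0.55 for Nxf1 against Control and from -0.15 to 0.30 for Alyref against Chtop. The cause of these changes was not tested. Same-numbered libraries did not deviate together (r from -0.17 to 0.25, against -0.27 to 0.23 for other pairs). In every group replicates 1 and 3 shared their HiSeq lanes and replicate 2 ran on others, so replicate number follows these lanes only in part. The replicate block gave 1.32 (edgeR adjusted p = 0.0404) for Alyref against Nxf1 and changed no other call on DDX39B or on intron 6. For intron 6, Alyref against Chtop was 0.00659 with library size alone and -0.45 to 0.12 with a library left out, and Nxf1 against Control was -0.16 to 0.84. Of the 126 values for genes of the TREX list, 108 kept their call and 18 lost it, with no change of direction. DESeq2 gave an adjusted p of 0.0628 for CHTOP and 0.0569 for NCBP3 (Chtop against Control), 0.115 for NCBP3 between the adaptors and 0.09 for NXF1 (Alyref against Nxf1), and the last 2 stood at 0.163 and 0.413 without the filter.

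Numbers of genes called moved by more than 1.5 times in 50 of 108 cases. DESeq2 called 302 genes for Chtop against Control where edgeR called 511, 152 against 556 for Alyref against Chtop, 56 against 159 for Alyref against Nxf1 and 413 against 870 for Chtop against Nxf1. For Alyref against Control, edgeR called 9 genes, and 17 with library size alone, 15 with DESeq2, 25 without the filter, 74 with the replicate block and 0 with snoRNAs counted. For Nxf1 against Control the 1 call became 2 with the block and 0 with DESeq2, with snoRNAs counted or by distinct bases. With a library left out, the counts in the order of the 6 comparisons of Alyref, Chtop and Nxf1 with Control and then Alyref with Chtop, Alyref with Nxf1 and Chtop with Nxf1 ran from 0 to 99, 97 to 759, 0 to 2, 77 to 806, 2 to 279 and 194 to 1210.

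No difference in region shares passed under any alternative (adjusted p of at least 0.45), and 48 of 366 such values changed sign. Counting as exon what any isoform keeps, which turns intron 6 into exon, put the difference in percentage points at 0.614 for the CDS share of Alyref against Control, -1.71 and 0.547 for the 5′ UTR share of Chtop and Nxf1 against the other factors, 0.0369 and -0.245 for the intron share of Alyref and Nxf1 against the other factors, and -14.7 for that of Nxf1 against Control. Counting snoRNA tags as intron put the CDS share against Control at 7.18 for Alyref, 4.44 for Chtop and 2.32 for Nxf1, the intron share of Nxf1 against Control at -6.38, and the retained intron share against Control at -11.8 for Alyref, -5.87 for Chtop and -2.83 for Nxf1. With a library left out, the CDS share ran from -4.75 to 6.46 (Alyref), -7.89 to 3.31 (Chtop) and -14.6 to 1.11 (Nxf1) against Control, and from -2.99 to 2.68 (Chtop) and -13.0 to 1.19 (Nxf1) against the other factors. The 5′ UTR share ran from -1.15 to 4.26 for Nxf1 against Control and -0.753 to 1.41 for Chtop against the other factors, and the 3′ UTR share from -1.72 to 0 for Nxf1 against Control. The intron share ran from -4.65 to 7.85 for Nxf1 against Control and -2.67 to 3.91 for Chtop against the other factors. The retained intron share ran from -1.87 to 6.47 for Alyref against Control, and from -0.228 to 5.77 (Chtop) and -1.73 to 11.7 (Nxf1) against the other factors. The log2 ratio of last to first exon ran from -0.17 to 0.62 (Alyref), -0.80 to 1.30 (Chtop) and -1.69 to 0.26 (Nxf1) against Control, and from -0.46 to 1.64 (Chtop) and -1.70 to 0.26 (Nxf1) against the other factors. Depth is a limit, as the Control libraries hold 3 to 29 DDX39B tags and the Nxf1 libraries 8 to 52.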
